A study of Mus musculus with 2 samples.

Results

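The macrophage polarization and co-stimulation markers are 10 genes that are read to call Mi/MΦ proinflammatory or inflammation-resolving, together with IL-10 and its receptor. They were chosen by symbol, and each symbol matched 1 Ensembl gene of the 53801 listed in both count tables. The genes are Nos2, Arg1, Retnla, Cd86, Cd80, Cd40, Il6, Il10, Il10ra and Il10rb. Microglia came from 2 male C57BL/6 mice aged 8 to 10 weeks by the design notes of the series, while the methods of the study give older mice of both sexes for its surgery. Both were hemizygous Cx3cr1(CreER/wt) mice, with 1 library per mouse. In these mice a tamoxifen-inducible Cre replaces one copy of Cx3cr1, so Cre is made wherever Cx3cr1 is active, in microglia and in other CX3CR1-expressing myeloid cells. The labels name no floxed allele, and both mice had tamoxifen at 75 mg/kg/day for 4 days. Sham surgery, the control for occlusion of the middle cerebral artery (MCAO), followed 14 days after the first injection. The ipsilesional hemisphere was dissociated 3 days later and CD11c-Ly6G-CD11b+CD45low cells were sorted. The titles say sham while the treatment label says none. The MCAO libraries are not analysed here. Every value is therefore a sham level, and no condition was tested.

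Macrophages take on different programs according to the signals they meet. Interferon-γ and microbial products raise Nos2, the inducible nitric oxide synthase, and the surface ligands CD80 and CD86 with the receptor CD40, through which these cells talk to T cells. IL-4 and IL-13 raise Arg1, which uses up the arginine that nitric oxide synthesis needs, and Retnla, a small secreted resistin-like protein. IL-6 is a secreted cytokine of acute inflammation. IL-10 restrains cytokine output through a receptor of 2 chains, IL10RA and IL10RB, and the kinases JAK1 and TYK2 that activate STAT3. In the healthy brain microglia are the main CD11b+CD45low cells.

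Library 1 held 23381026 counts on genes and library 2 held 41142609. Levels are given as counts per 1000000 counts on genes (CPM). The upper limit behind a count of 0 is 3 counts, which equals 0.128 CPM in the first library and 0.0729 CPM in the second. The intervals are exact 95% intervals for counting error only, since amplified reads are not independent molecules. All 10 microglia markers reached 10 counts in each library, and together they took 3.77% and 4.31% of the counts. Of these, 1 was more than 2-fold lower in library 2, Sall1 at 337 and 146 CPM, and none was more than 2-fold higher. The other 9 lay within 2-fold in both directions, from Cx3cr1 at 4860 and 3566 CPM to Gpr34 at 1951 and 3404 CPM. The libraries stood further apart in some other markers. The 10 genes of immature neutrophils summed to 2110 and 34084 CPM, and all 10 were more than 2-fold higher in library 2. The 9 genes of mature neutrophils summed to 3501 and 31567 CPM, with 7 more than 2-fold higher. Ly6g itself, the marker the sort selected against, had 15.4 and 211 CPM. The sum of the border macrophage markers went the other way, from 750.0 to 342 CPM, with 4 of 8 more than 2-fold lower. Lyve1, Pf4 and Cbr2 were less than 2-fold lower, and Ms4a7 was higher, at 47.4 and 59.0 CPM. Of all genes that reached 10 counts in each library, 5.74% were more than 2-fold higher in library 2 and 25.9% more than 2-fold lower. Dendritic cell markers summed to 379.8 and 106 CPM, with Fscn1 alone at 285 and 25.7 CPM. Of the 7 that reached 10 counts in each library, 2 were more than 2-fold lower and none higher. Monocyte markers summed to 365 and 471 CPM, with Ly6c2 alone at 90.3 and 302 CPM. Of these 6 genes, 1 was more than 2-fold higher and 2 more than 2-fold lower. The median log2 ratio was -0.36 for the dendritic cell list and -0.42 for the monocyte list, beside -0.26 over all genes. Eosinophil markers summed to 41.2 and 90.0 CPM, with Epx at 0 counts in library 1 and 101 in library 2. Siglecf had 36.3 and 41.8 CPM, Prg2 had 1.24 and 36.9 CPM and Ccr3 had 3.64 and 8.85 CPM. Basophil and mast cell markers had 2 counts in library 1 and 6881 in library 2. Of the B cell markers, Ighm had 517 and 720.2 CPM, Cd79b had 52.1 and 55.4 CPM, and Pax5 had 0 counts and 1 count. T and NK cell markers summed to 4.62 and 6.17 CPM, with Cd4 alone at 4.45 and 2.80 CPM. Cd3d had 3 and 109 counts, Klrb1c 0 and 18, Cd3g 0 and 7, Ncr1 0 and 5, and Trac 1 and 0. Cd3e and Cd8a were at 0 counts in both. The part of these cells in the levels below was not tested, and in bulk RNA fewer cells of a type and less RNA per cell cannot be told apart.

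The 10 genes spanned almost the whole range of expression. IL-10 receptor genes and Cd86 were abundant, whereas Nos2 and Il10 lay close to the limit of counting. To compare genes with one another, counts were divided by exon length and scaled to 1000000 per library (TPM). On this scale the mean of the 2 libraries fell from 474 ± 287 TPM for Il10ra (SD, n = 2) to 0.316 ± 0.411 TPM for Nos2. Among 13439 genes of known length that reached 10 counts in each library, the median was 10.0 TPM. Il10ra lay above 98.3% of them, Cd86 above 97.8% and Il10rb above 94.1%. Retnla lay above 72.8%, Cd80 above 55.7% and Il6 above 46.9%. Cd40 lay above 30.7% and Arg1 above 21.1%. Il10 and Nos2 did not reach 10 counts in both libraries, and their means lay above 7.15% and 1.79% of these genes.

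The order by TPM was Il10ra, Cd86, Il10rb, Retnla, Cd80, Il6, Cd40, Arg1, Il10 and Nos2. Of the 9 pairs of neighbours, 6 had overlapping ranges over the 2 libraries, though such ranges ignore that both genes were counted in the same libraries. Within each library Cd80 lay above Il6, Cd40 above Arg1 and Arg1 above Il10. The order of Il10ra and Cd86, of Retnla and Cd80, and of Il10 and Nos2 changed between the libraries. The 3 pairs whose ranges stood apart were Cd86 above Il10rb, Il10rb above Retnla and Il6 above Cd40. The gap after Il10rb, 5.39-fold to Retnla, was the widest. It parted 3 genes at 139 TPM or more in each library from 7 genes at 46.9 TPM or less. Without the length scaling 5 of the 10 genes changed place, among them Retnla, whose exons cover only 599 bases. With the longest transcript as length, Cd86 came before Il10ra.

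**Figure D1:**
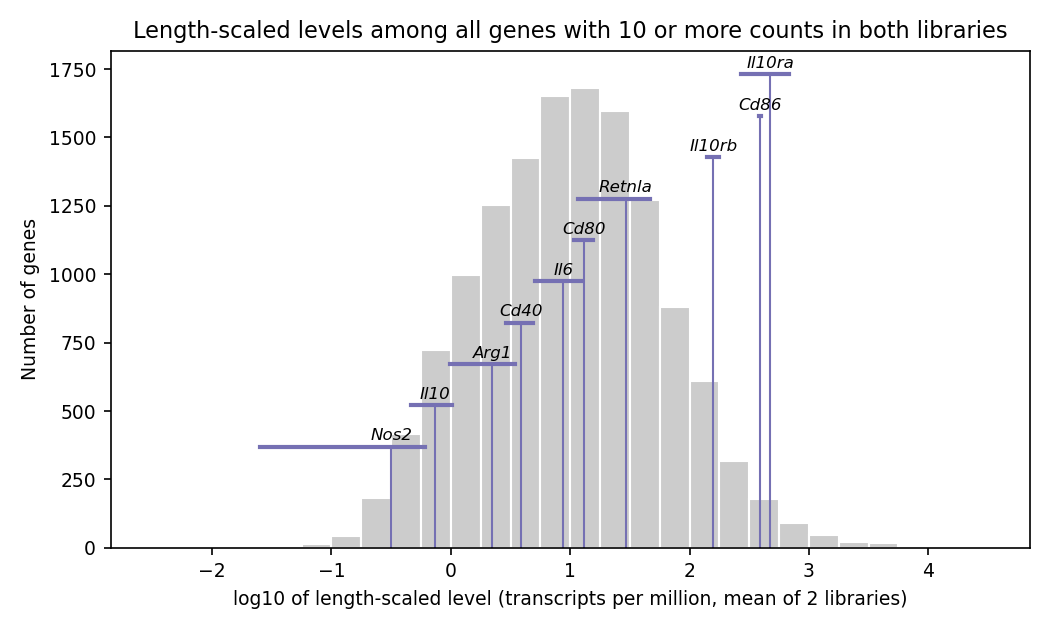
Histogram of length-scaled levels (log10 of TPM, mean of the 2 sham libraries) over 13439 genes, with vertical lines at the 10 genes and horizontal bars from the lower to the higher library. Il10ra, Cd86 and Il10rb sit in the upper tail, Nos2 at 0.316 TPM and Il10 at 0.742 TPM in the lower one, and heights of the lines carry no value.

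Nos2 (chromosome 11 of GRCm38, 78920787 to 78960254) stood at 0.941 CPM in library 1 against 0.0486 CPM in library 2, from 22 and 2 counts. The count of library 2 lay under the limit of 3 that a count of 0 allows, so only library 1 showed the gene clearly. Library 1 was 19.4-fold higher (interval 4.76 to 169.8), and with the count of 2 set to 3 the log2 ratio of library 2 to library 1 was -3.69. Arg1 (chromosome 10, 24915221 to 24927484) stood at 0.770 CPM in library 1 against 3.38 CPM in library 2, from 18 and 139 counts. Arg1 was thus 4.39-fold higher in library 2 (interval 2.68 to 7.62), a ratio above that of 98.2% of counted genes. Within a library the ratio of the genes needs no scaling to the total. Per length, Arg1 was 1.62 times Nos2 in library 1 (interval 0.819 to 3.16), which includes equal levels, and 138 times Nos2 in library 2 (37.4 to 1148).

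Other genes of arginine and nitric oxide metabolism moved in both directions. Of 14 such genes, 11 had at least 10 counts in both libraries, with 1 more than 2-fold higher and 3 more than 2-fold lower in library 2. Of all 13445 counted genes, 5.74% were more than 2-fold higher and 25.9% more than 2-fold lower in library 2. The median log2 ratio of the list was -0.17, beside -0.26 over all counted genes. After adjustment for GC content and transcript length, by which each ratio is set against genes of like GC content and length, 9.70% of all genes were more than 2-fold higher and 12.7% lower. Of the list, 1 was then higher and 2 were lower. Ddah2, a gene of the dimethylarginine dimethylaminohydrolase family, had 104 TPM in each library. Azin1, which stabilizes the first enzyme of polyamine synthesis, had 40.2 and 27.0 TPM, and Pts, of the synthesis of the cofactor tetrahydrobiopterin, had 24.0 and 30.4 TPM. Arg2, the mitochondrial arginase, had 4.32 and 13.8 CPM, higher in library 2 like Arg1, and lay above it in both, at 8.75 times Arg1 per length in library 1 and 6.39 times in library 2. Slc7a1, an arginine transporter, had 35.8 and 9.99 CPM, and its log2 ratio of -1.84 came to -0.46 after that adjustment. The other nitric oxide synthases were scarce, with 0 counts of Nos1 in both libraries and 3 and 15 counts of Nos3. The summed neutrophil markers were higher in the same library as Arg1 and Arg2, and their part was not tested.

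Retnla (chromosome 16, 48842552 to 48844461) stood at 9.88 CPM in library 1 against 3.06 CPM in library 2, from 231 and 126 counts. It was 3.23-fold lower in library 2 (interval 2.59 to 4.04), opposite in direction to Arg1, the other gene raised by IL-4. The summed border macrophage markers were lower in the same library as Retnla, with 4 of 8 more than 2-fold lower, and their part was not tested. Retnlg, a resistin-like gene of neutrophils and a neighbour on chromosome 16, had 4250 and 75589 counts, or 182 and 1837 CPM. Retnlg was thus 18.6 times Retnla per length in library 1 and 606 times in library 2. The other members of the family were scarce, with 4 and 18 counts of Retn, and with 0 counts of Retnlb in library 1 and 14 in library 2.

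Because the transcripts of Retnla and Retnlg are close relatives, their coding sequences were compared over the length of a read, 75 bases. No run of 75 bases of Retnla occurs in a transcript of another gene. The closest stretch, at coding bases 76 to 150 of Retnla and 13 to 87 of Retnlg, differs at 3 of 75 bases, which are in capitals (GENCODE M21, GRCm38).
Retnla: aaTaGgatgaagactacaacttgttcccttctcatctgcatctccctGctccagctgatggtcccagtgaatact
Retnlg: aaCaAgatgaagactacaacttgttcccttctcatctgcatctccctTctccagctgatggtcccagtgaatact
How reads of this stretch were assigned was not tested, and the low counts of Retnla carry that uncertainty.

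The co-stimulation genes held a steep hierarchy that both mice shared. Cd86 (chromosome 16, 36603869 to 36666081), one of the B7 ligands that engage CD28 and CTLA-4 on T cells, had 489 CPM in library 1 against 635 CPM in library 2. Cd80 (chromosome 16, 38458933 to 38486933), the other B7 ligand, had 13.9 and 24.9 CPM. Cd40 (chromosome 2, 165055627 to 165072948), the receptor for CD40 ligand, had 3.46 and 7.32 CPM. All 3 genes were higher in library 2. The size was 1.30-fold for Cd86 (interval 1.27 to 1.33), 1.78-fold for Cd80 (1.57 to 2.03) and 2.11-fold for Cd40 (1.65 to 2.73). Per length, Cd86 was 35.5 times Cd80 in library 1 (interval 31.8 to 39.8) and 25.8 times in library 2 (24.3 to 27.5). Cd86 was 131 times Cd40 in library 1 and 80.8 times in library 2. Cd80 was 3.70 times Cd40 in library 1 (2.89 to 4.78) and 3.13 times in library 2 (2.75 to 3.57), intervals that overlap. The gene of Cd80 is shorter in the deposited tables than in the annotation used for its length, so its TPM is less certain than the others.

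The 12 other genes of the B7 and CD28 family included 1 that far exceeded Cd86. Vsir, which encodes the inhibitory ligand VISTA, had 1434 and 1111 TPM, or 3.77 and 2.79 times Cd86. Icosl, the ligand of ICOS, had 99.3 and 10.5 TPM, and Cd276, which encodes B7-H3, 51.5 and 7.87 TPM. These were the 2 of 9 counted genes more than 2-fold lower in library 2, beside 25.9% of all genes, and none was more than 2-fold higher. Their median log2 ratio was -0.31, close to that of all genes, while Cd80 and Cd86 lay above it. After adjustment for GC content and length the log2 ratio of Vsir turned from -0.06 to 1.49. That made it the 1 gene past 2-fold higher, and Icosl and Cd276 stayed past 2-fold lower, beside 9.70% and 12.7% of all genes. For Ctla4 the counts were 2 and 0. Vtcn1 was at 0 counts in both. Cd40lg, the ligand of CD40, was at 0 counts in both libraries. Of the 9 genes of CD40 signalling, 8 were counted, with none more than 2-fold higher and 2, Traf3 and Traf6, more than 2-fold lower, beside 25.9% of all genes. After adjustment for GC content and length neither was past 2-fold, with Traf6 at -0.85 and Traf3 turned from -1.23 to 0.16 on the log2 scale. Map3k14, named after its value was seen, was then the 1 gene more than 2-fold higher, beside 9.70% of all genes. Its log2 ratio was 1.48 after the adjustment and -0.18 before. Among the adaptors and inhibitors that CD40 recruits, Traf2 had 42.2 and 28.9 TPM, Birc3 39.6 and 32.8 TPM and Traf5 27.2 and 24.5 TPM. These 3, the highest of the list, exceeded Cd40, at 2.89 and 4.92 TPM, in both libraries. Traf1, at 0.938 and 0.960 TPM, lay below Cd40 in both, and Traf3 and Traf6 lay below it in library 2 alone, at 2.82 and 2.61 TPM.

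Il6 (chromosome 5, 30013114 to 30019981) stood at 4.32 CPM in library 1 against 13.1 CPM in library 2, from 101 and 540 counts. Il6 was 3.04-fold higher in library 2 (interval 2.45 to 3.80), second to Arg1 among the 8 genes counted in both. Il10 (chromosome 1, 131019845 to 131024974) stood at 0.214 CPM in library 1 against 0.583 CPM in library 2, from 5 and 24 counts. Its ratio of 2.73 had a wide interval, 1.02 to 9.15. Per length, Il6 was 10.9 times Il10 in library 1 (4.52 to 34.3) and 12.1 times in library 2 (8.07 to 19.1), intervals that overlap. Summed neutrophil markers were higher in the same library, and their part was not tested.

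Genes of IL-6 receptor signalling were mostly lower in library 2, less so after adjustment for GC content and length. All 8 were counted, 5 were more than 2-fold lower in library 2 and none more than 2-fold higher, beside 25.9% and 5.74% of all genes. After the adjustment 3 were lower, Il6st, Tyk2 and Socs3, and 1 was higher, Ptpn11 at 1.22, named after its value was seen, beside 12.7% and 9.70% of all genes. Il6st, which encodes the shared signal transducer gp130, had 299.8 and 56.8 CPM. Socs3, the feedback inhibitor, had 359 and 89.4 TPM, Jak1 had 146 and 43.3 TPM and Stat3 had 91.1 and 37.8 TPM. The adjusted log2 ratio was -0.52 for Jak1, and that of Stat3 turned from -0.96 to 0.28. Tyk2 had 77.6 and 14.9 CPM. The median log2 ratio of the 8 genes was -1.37, and -0.32 after the adjustment, beside 0 over all genes.

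The IL-10 receptor genes were, with Cd86, the most abundant of the 10, and the 2 chains differed between the libraries in unlike ways. Il10ra (chromosome 9, 45253837 to 45269149), the chain that binds IL-10, had 832 CPM in library 1 against 413 CPM in library 2, from 19456 and 17012 counts. Il10rb (chromosome 16, 91406164 to 91425834), the chain shared with receptors for IL-22 and interferon-λ, had 237 and 231 CPM, from 5530 and 9523 counts. Il10ra was 2.01-fold lower in library 2 (interval 1.97 to 2.05), and the ratio of Il10rb was 0.979 (0.947 to 1.01). The receptor chains therefore stood at 3.83 to 1 per length in library 1 (interval 3.72 to 3.95) and at 1.94 to 1 in library 2 (1.90 to 1.99), a comparison that does not depend on the library totals. This ratio was 1.97-fold higher in library 1, and 1.39-fold higher after adjustment for GC content and length. The 2-fold difference of Il10ra lay at the threshold, with a log2 ratio of -1.01. This became -0.76 with TMM, -0.73 with DESeq2, -0.92 without neutrophil genes in the totals and -0.53 after the adjustment, all short of 2-fold. It was -1.20 when scaled to the summed microglia markers and -1.01 without mitochondrial genes in the totals, both past 2-fold. Of the exon bases of Il10rb, 14.9% are also exons of Gm21970 on the same strand, and 12.9% of its runs of 75 bases occur there too. Gm21970 had 0 counts in both libraries. How reads of the shared bases were counted was not tested, so the level of Il10rb is uncertain.

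The receptor far exceeded its ligand, with Il10ra at 1457 times Il10 per length in library 1 (interval 624 to 4489) and 265 times in library 2 (178 to 414). Of 11 genes that carry or answer the IL-10 signal, all were counted, with 6 more than 2-fold lower in library 2 and 1 more than 2-fold higher, beside 25.9% and 5.74% of all genes. After adjustment for GC content and length 2 stayed lower, Tyk2 and Socs3, and 1 higher, beside 12.7% and 9.70% of all genes. Their median log2 ratio was -1.44, and -0.47 after the adjustment. The list shares Jak1, Tyk2, Stat3 and Socs3 with that of IL-6. Zfp36, which encodes an mRNA decay factor that IL-10 can induce, had 1678 and 1258 TPM. Il4ra, a receptor chain for IL-4 and IL-13, had 197 and 41.9 TPM, and Sbno2, a STAT3 target, had 139.9 and 31.5 CPM. Their adjusted log2 ratios were only -0.19 and -0.49. The gene more than 2-fold higher was Il1rn, the antagonist of IL-1, with 12.7 and 53.2 CPM, named after its value was seen. Of the 11 other ligands and receptors of the IL-10 family, 8 were at 0 counts in both libraries. The 6 cytokine genes Il19, Il20, Il22, Il24, Ifnl2 and Ifnl3 were among them. Ifnlr1, whose product pairs with IL10RB, had 19 and 152 counts, Il20rb had 22 and 19, and Il22ra2, a soluble decoy, had 13 and 17.

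Between the libraries, 5 of the 8 genes that reached 10 counts in each library differed by more than 2-fold in CPM. Of all 13445 genes counted, 31.7% did so. Arg1, Il6 and Cd40 were the 3 higher in library 2, a direction that 5.74% of all genes took. Il10ra and Retnla were the 2 lower, as were 25.9% of all genes. The median log2 ratio of the 8 genes was 0.61. With TMM or DESeq2 scaling the split was 4 higher and 1 lower, beside 8.78% and 19.7% of all genes with TMM and 9.28% and 19.0% with DESeq2. Cd80 then passed the 2-fold line and Il10ra no longer did, and TMM moved every log2 ratio up by 0.25. Scaled to the summed microglia markers, 2 were higher and 2 lower, beside 4.49% and 31.7% of all genes, and Cd40 was no longer past the line. Arg1, Il6 and Retnla stayed past it in all these settings, and also with the neutrophil genes left out of the totals and after adjustment for GC content and length. The last gave log2 ratios of 1.90 for Arg1, 1.54 for Il6, 1.11 for Cd40, 0.84 for Cd80, 0.05 for Cd86, -0.06 for Il10rb, -0.53 for Il10ra and -1.63 for Retnla. The direction of Il10rb flipped between settings, from -0.22 with microglia markers to 0.24 with DESeq2. Such a comparison is of 2 mice and not of conditions.

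**Figure D2:**
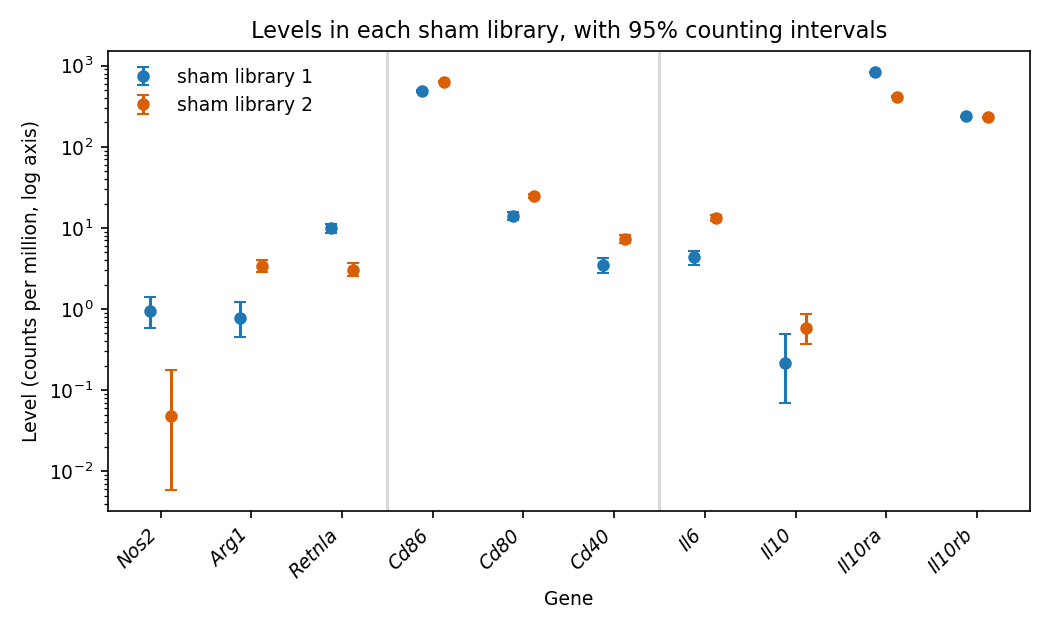
Level of each of the 10 genes in CPM (log axis) in sham library 1 (blue) and sham library 2 (orange), with bars for exact 95% counting intervals. Il10ra, Cd86 and Il10rb lie between 231 and 832 CPM, and Nos2 lies at 0.941 and 0.0486 CPM.

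**Figure D3:**
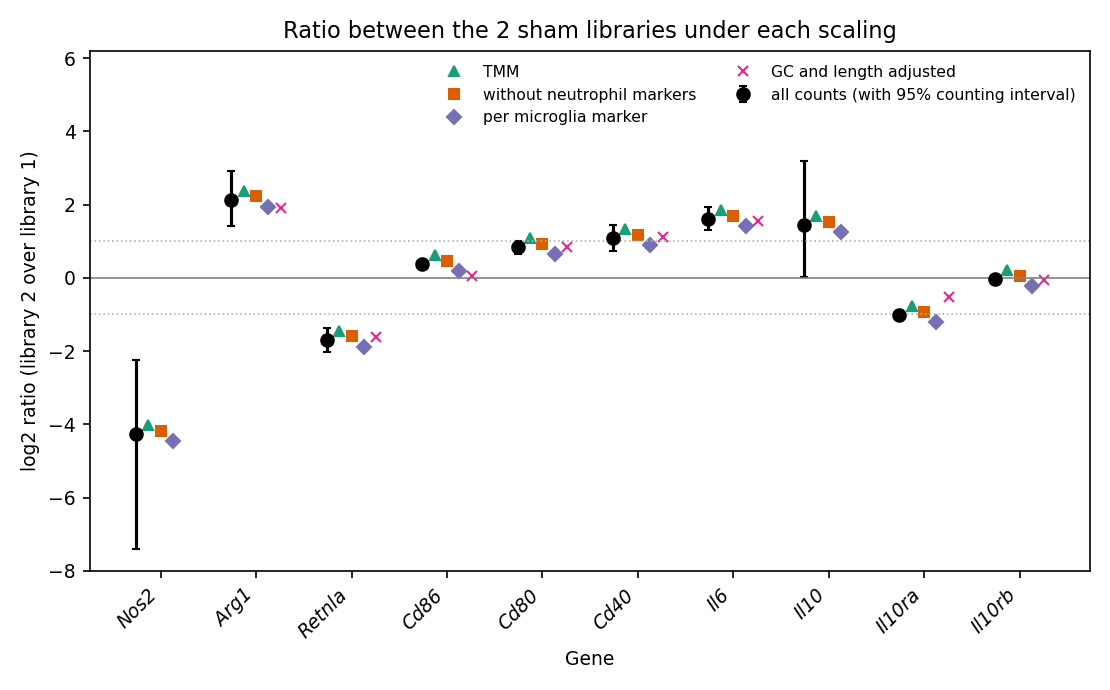
log2 ratio of library 2 to library 1 for each gene under 5 scalings, with dotted lines at a 2-fold difference and black bars for the counting interval of the ratio by total counts. Arg1 and Il6 lie above the upper line and Retnla below the lower line under each scaling shown, and Il10ra lies on the lower line at -1.01 by total counts.

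Other markers of the same states did not share one direction. Of 16 other proinflammatory markers, 11 were counted, with 2 more than 2-fold higher and 1 more than 2-fold lower in library 2, beside 5.74% and 25.9% of all genes. After adjustment for GC content and length 1 was higher and 1 lower, beside 9.70% and 12.7% of all genes. Cxcl10 then came to 0.95 on the log2 scale. Fcgr3, which encodes CD16, had 3372 and 4211 TPM, Irf5 had 587 and 426 TPM and Fcgr1 had 470.0 and 366 TPM. Cxcl10, an interferon-induced chemokine, had 7.23 and 16.0 CPM and Fpr2, a formyl peptide receptor also found on neutrophils, had 3.89 and 40.5 CPM. All 16 of the other alternative state markers were counted. Of these, 3 were more than 2-fold higher and 6 more than 2-fold lower, beside 5.74% and 25.9% of all genes. After the adjustment 3 were higher and 4 lower, beside 9.70% and 12.7% of all genes. Chil3, which is also on the list of immature neutrophil genes, had 792 and 4073 TPM. Cd163, also a marker of border macrophages, had 48.5 and 10.8 CPM, Stat6 had 263 and 78.4 TPM and Il13ra1 had 189.7 and 112 TPM. Adjusted, the log2 ratio of Stat6 was -0.60. The median log2 ratio was 0.25 for the first list and -0.90 for the second, and 0.10 and -0.34 after the adjustment.

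**Figure D4:**
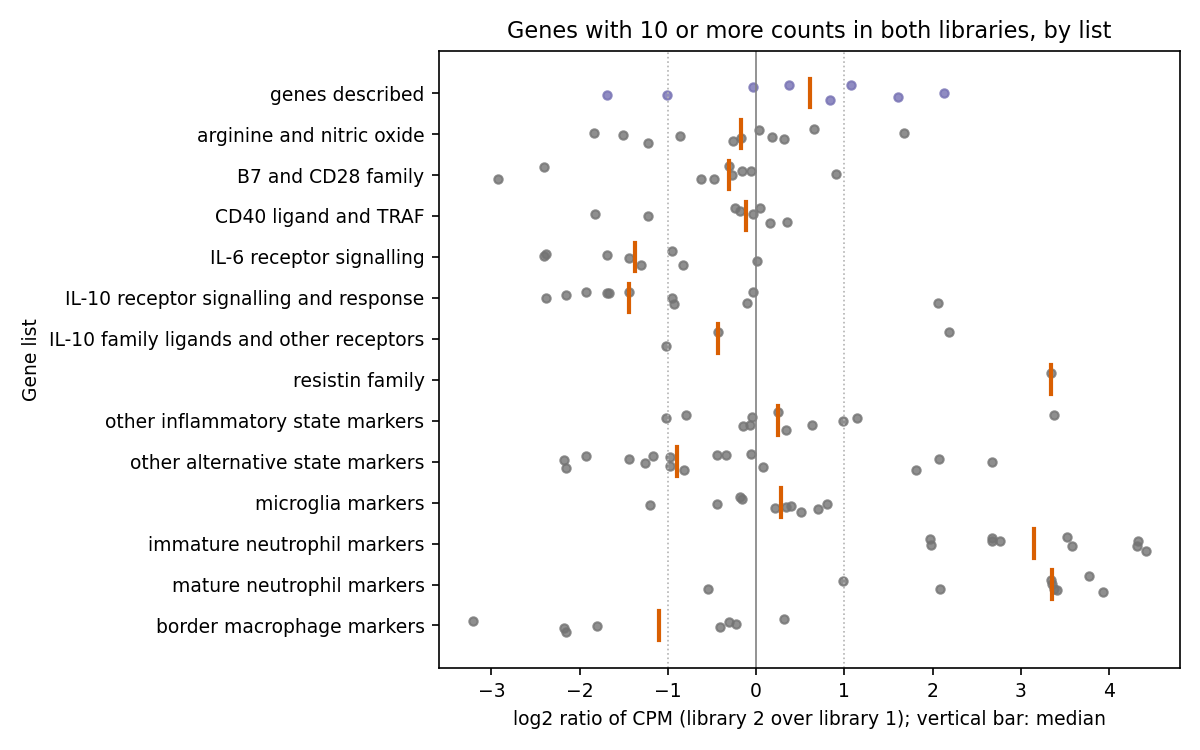
log2 ratio of library 2 to library 1 in CPM for each gene that reached 10 counts in each library, by list, with an orange bar at the median and dotted lines at a 2-fold difference. The 8 genes described have a median of 0.61, the neutrophil lists medians of 3.14 and 3.35, and the IL-10 signalling list a median of -1.44, all before adjustment for GC content and length.

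Promoter windows from RefSeq (GRCm38.p6) matched 3 of the 10 genes, Cd80, Il6 and Retnla. Those of Il6 and Retnla are shown, since these genes differed in opposite directions between the libraries. The window of Il6 holds the 250 bases before the start, chr5:30012864-30013113 on the plus strand. That of Retnla is chr16:48842359-48842550 on the plus strand, 192 bases that end at the first exon of GENCODE. Capitals mark matches on either strand to 6 motifs.
Il6: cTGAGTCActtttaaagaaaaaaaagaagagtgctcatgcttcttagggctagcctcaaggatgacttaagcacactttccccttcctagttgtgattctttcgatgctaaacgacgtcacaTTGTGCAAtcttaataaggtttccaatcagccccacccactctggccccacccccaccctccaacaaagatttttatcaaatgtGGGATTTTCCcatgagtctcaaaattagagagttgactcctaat
Retnla: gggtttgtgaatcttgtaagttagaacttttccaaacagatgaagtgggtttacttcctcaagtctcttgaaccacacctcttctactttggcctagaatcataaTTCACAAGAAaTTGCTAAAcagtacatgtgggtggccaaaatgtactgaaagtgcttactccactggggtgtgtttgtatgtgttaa
The window of Il6 held an AP-1 motif (TGANTCA, in 6.75% of all 32851 windows of 250 bases), a C/EBP motif (TTGCNNAA, 9.56%) and the kappaB consensus (7.25%), in this order toward the start. That of Retnla held the STAT6 motif (5.85%) followed by a C/EBP motif. Neither held the STAT motif (TTCNNNGAA, 7.02%), and a TATA box (TATAAA, 12.4%) of Retnla lay in the 58 bases not shown. These matches describe letters and not binding.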

How the data were processed

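RNA from sorted microglia was made into cDNA with the SMART-Seq HT Kit and sequenced in pairs of 75 bases. The submitters' processing notes name HISAT2, HTSeq and GRCm38. What the authors deposited is a table per library of whole-number counts for each Ensembl gene, not normalized. Versions, annotation release and strand setting are not given in the sources used here, so reads of overlapping genes cannot be told apart by strand. Symbols, exon lengths and GC content came from GENCODE M21, which matched 53620 of 53801 identifiers. Promoter windows came from RefSeq. Gene starts are counted from 1 here and from 0 in the tables.

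CPM used all counts on genes, and TPM the union of exons. A gene that reached 10 counts in each library is called counted, and a difference was called past 2-fold. No p-value was computed, since 1 group of 2 libraries gives no test of a condition. Ratios have exact binomial intervals and counts exact Poisson intervals. Ratios were planned with counts under 3 set to 3, and observed counts of 1 to 3 were kept, with both values given for Nos2. The common biological coefficient of variation was 0.477 (edgeR 4.0.16, 13416 genes). Alternatives were TMM, DESeq2 1.42.0 size factors, totals without mitochondrial or neutrophil genes, microglia markers, other filters and lengths, and leaving out each library. The adjustment for GC content and length, in 10 bins each, was chosen after seeing the data. Of each list, the 3 genes of highest mean TPM and the 2 of largest ratio were eligible to be named. The genes and lists were chosen with earlier results of these data known. Other software was matplotlib 3.10.9, pandas 2.3.3, scipy 1.17.1, numpy 2.4.6, Python 3.11.15 and R 4.3.3, and the ratio steps were tested on simulated data. The summed level of the B cell list is not reported here.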

Additional observations from a re-analysis of the deposited data

How the results depend on the processing

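No paired analysis was possible because there is only 1 group. The number of genes past 2-fold was 5, and 4 to 7 across the 7 alternatives, with 7 where no filter on low counts was used. Which genes passed changed with scaling, as given above for Cd80, Cd40 and Il10ra. The number counted was 8, and 7 to 9 with other filters or with one library left out. In the order by level, 8 genes kept their place with the longest transcript as length and 5 without length scaling. In the latter Nos2, Cd80, Il6, Il10 and Retnla changed place. Of the 70 alternative mean levels, 69 moved by less than 1 SD, which with 2 libraries says little. Those with a library left out could not move by 1 SD, by construction of that setting. The mean level of Il10rb moved to 242.8 CPM without neutrophil genes in the totals. Of the 58 alternative log2 ratios, 41 stayed within the counting interval and 17 left it, those of Cd86, Cd80, Il10ra and Il10rb, whose high counts make the interval narrow. None of the genes past 2-fold changed sign. The number of mice, 2, limits every mean, and at this depth Nos2 in library 2 and Il10 in library 1 rest on 2 and 5 counts.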
